A study of Rattus norvegicus with 4 samples.

Results

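Caspases, calpains and the genes of the apoptosome are described here in rat embryonic stem cells (ESCs) with and without a Cas9-induced mutation of *Thop1*, the gene of the peptidase thimet oligopeptidase. The 8 genes were taken by name from the deposited table of 34773 genes: *Casp2*, *Casp6*, *Casp9*, *Capn1*, *Capn2*, *Apaf1*, *Xiap* and *Diablo*. All 8 were among the 15028 genes with enough counts to be tested. Poly(A) RNA was sequenced from 4 libraries. WT was 1 library, which the study describes as the ESC line DA-5-3 carrying a *Rex1*-GFP reporter. *Thop1*-KO was 3 libraries, 1 from each of 3 subclones (#1, #2 and #3) that the study obtained from the reporter line with Cas9, sgRNA and puromycin selection. All of these cells carry the reporter. The study calls DA-5-3 diploid and names it as the control, whereas the submitters' design text calls the sequenced cells haploid. The study grew its rat ESCs on feeder cells in medium with the MEK inhibitor PD0325901, the GSK3 inhibitor CHIR99021 and LIF, and the labels give no other treatment or time.

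Caspases are cysteine proteases that cut proteins after aspartate during apoptosis. In the mitochondrial pathway, cytochrome c leaves the mitochondria and binds APAF1, which assembles into a wheel-like complex, the apoptosome, that recruits and activates the initiator caspase-9. Caspase-9 then cuts executioner caspases, XIAP binds and blocks caspases, and DIABLO (also called Smac), released from mitochondria, displaces XIAP. Calpains are calcium-dependent cysteine proteases of the cytosol that cut many cytoskeletal and signalling proteins, and a small subunit shared by calpain-1 and calpain-2 is needed for their activity. Their mRNA level does not show protease activity, which depends on cleavage, calcium and inhibitors.

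Promoter sequences were held by the RefSeq table of assembly GRCr8 for 6 of the 8 genes, as windows from 250 bases before to 50 after the start of the gene. *Capn1* and *Xiap* had no entry. The windows of *Apaf1* and *Casp6* are shown because these genes had the largest measured differences between the genotypes among the 6, in opposite directions. *Apaf1* lies at chr7:27466723-27467022 on the minus strand and *Casp6* at chr2:221140136-221140435 on the plus strand, both in GRCr8. Capitals mark GC boxes, searched as GGGCGG on both strands.

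Apaf1: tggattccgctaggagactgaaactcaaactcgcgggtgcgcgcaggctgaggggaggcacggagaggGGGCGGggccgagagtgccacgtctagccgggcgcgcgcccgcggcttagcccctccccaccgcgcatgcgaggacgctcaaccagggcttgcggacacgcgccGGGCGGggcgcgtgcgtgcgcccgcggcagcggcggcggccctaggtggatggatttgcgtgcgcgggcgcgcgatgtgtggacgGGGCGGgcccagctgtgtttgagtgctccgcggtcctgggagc

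Casp6: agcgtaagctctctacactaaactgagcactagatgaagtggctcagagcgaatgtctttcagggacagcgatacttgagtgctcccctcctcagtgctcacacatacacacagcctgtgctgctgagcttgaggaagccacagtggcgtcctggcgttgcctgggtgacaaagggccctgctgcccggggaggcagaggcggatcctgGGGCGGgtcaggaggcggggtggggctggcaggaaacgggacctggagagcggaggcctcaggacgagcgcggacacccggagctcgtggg

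The *Apaf1* window held 3 GC boxes and 43 CpG dinucleotides, more CpG than 97.9% of the 33469 windows of the table, whose median was 7. The *Casp6* window held 1 GC box and 16 CpG, more than 69.5%. A GC box was found in 33.1% of all windows, and among the 6 genes it was found in those of *Casp2* (1), *Casp9* (3) and *Diablo* (1) as well, but not in that of *Capn2*. The letters TTCCCGC, as in E2F sites and searched on both strands, were found in 4.21% of all windows and, among the 6, in that of *Casp2* (1 match). The CCAAT box, also searched on both strands, was found in 37.5% of all windows and in those of *Casp2* (1), *Capn2* (1) and *Diablo* (3). These are matches of letters, and binding was not measured.

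The counts on genes summed to between 15405499 and 17936544 per library. *Thop1* itself was at 370 CPM (counts scaled to the size of the library) in WT and at 110, 92.5 and 149 in #1, #2 and #3 (log2 fold change -1.66, edgeR, adjusted p = 0.0187). Of the 7 pluripotent cell markers in the table, *Pou5f1* was at 3347 FPKM (scaled to gene length and library size) in WT and at 2718 to 3403 in *Thop1*-KO, and *Tdgf1* at 596 and at 514 to 673, so these markers of the labelled cell type were abundant in every library. The 7 summed to 4312 FPKM in WT and to 3936 to 4770 in *Thop1*-KO. Of them, 2 were called by edgeR, both as higher in *Thop1*-KO (*Esrrb* and *Tfcp2l1*), beside 8.62% of all genes. *Sox2* was at 130 FPKM in WT and at 157 to 280 in *Thop1*-KO, and was not called (edgeR, adjusted p = 0.157). *Esrrb*, a regulator of naive pluripotency, was at 12.1 FPKM in WT and at 217 to 252 in *Thop1*-KO. *Tfcp2l1*, another such regulator, was at 4.61 and at 31.1 to 36.9. *Nanog* (196 FPKM in WT, 141 to 207 in *Thop1*-KO) and *Klf4* (26.8, 17.2 to 29.2) did not share the rise of *Esrrb* and *Tfcp2l1*. For both, WT lay inside the range of the subclones (edgeR, adjusted p = 0.604 and 0.552). Markers of fibroblasts, as feeder cells are, were lowest in WT when summed. None of the 6 tested was called by edgeR or limma. DESeq2 called 1 as higher, beside 21.5% of all genes called. An unadjusted p under 0.05 in edgeR was found for 2, beside 34.0% of all genes. With edgeR, leaving out #1 or leaving out #2 gave 2 calls, as higher, beside 13.6% and 37.9% of all genes called. The 9 fibroblast genes in the table summed to 64.6 FPKM in WT and to 88.3, 180 and 114 in #1, #2 and #3, mainly from *Col1a1* (32.2 in WT, 51.8 to 94.1 in *Thop1*-KO), *Vim* (30.5 and 32.5 to 67.9) and *Col3a1* (1.32 and 3.37 to 16.6), whereas *Thy1*, *Dcn* and *Lum* had 0 counts in all 4 libraries. *Col6a1* was at 0.366 FPKM in WT and at 0.317 to 0.471. The 8 primitive endoderm genes summed to 80.2 FPKM in WT and to 117 to 166 in *Thop1*-KO, of which *Lama1* gave 79.2 and 114 to 164. *Sox17*, *Gata6* and *Dab2* stayed at or under 1.73 FPKM in every library. *Gata4* went the other way, with 17 counts in WT and 3, 0 and 3 in the subclones (edgeR, adjusted p = 0.128). Of the 6 primitive endoderm genes tested 0 were called by edgeR, limma or DESeq2, and without #2 edgeR called 1, as higher. In edgeR 4 had an unadjusted p under 0.05, beside 34.0% of all genes. Among these was *Dab2*, with 0 counts in WT. It passed the count filter through *Thop1*-KO alone and could only come out higher. The part of other cells in the values below was not tested, and in bulk RNA fewer cells of a type and less RNA per cell cannot be told apart.

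Among the 8 genes, *Apaf1* and *Xiap* were higher in *Thop1*-KO than in WT at an adjusted p-value under 0.05, and none was lower at that threshold. This was decided with edgeR's quasi-likelihood test on the counts, fitted across all genes with Benjamini-Hochberg adjustment. Of all genes tested, 13.8% were called, 8.62% as higher and 5.17% as lower in *Thop1*-KO, against 2 of 8 here. *Xiap*, with 0 counts in WT, passed the count filter through *Thop1*-KO alone. It could only come out higher, here and in the counts below. At an unadjusted p-value under 0.05, 4 of the 8 genes passed (*Apaf1*, *Xiap*, *Casp6* and *Capn1*), beside 34.0% of all genes. WT was the lowest library for 5 of the 8 genes, where this held for 38.1% of all genes, and the highest for 2, where it held for 37.6%. The median log2 fold change of the 8 genes was 0.39, and that of all genes tested was 0.06. With 1 WT library the spread comes from the 3 subclones alone, genotype and the single WT culture cannot be told apart, and 0.25 is the smallest p that exact permutation of the library labels, one-sided, allows.

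**Figure D1:**
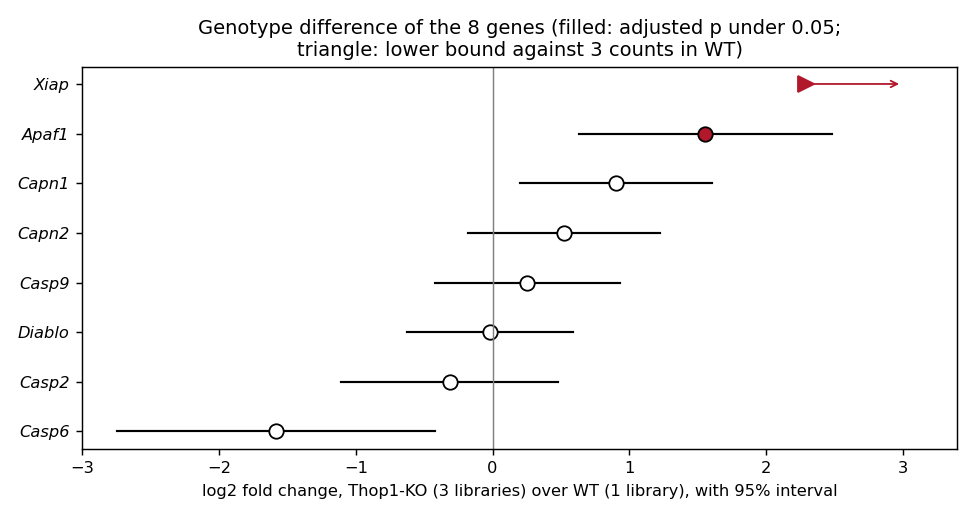
Log2 fold change of the 8 genes, 3 Thop1-KO libraries over the 1 WT library; points are edgeR estimates, lines their 95% intervals, filled symbols an adjusted p under 0.05. Apaf1 (1.56) and Casp6 (-1.58) lie farthest from 0 among the genes with counts in WT. Xiap, with 0 counts in WT, is drawn at 2.29, its subclone mean over a floor of 3 counts in WT, with no interval. Counting error of the subclones does not enter, so this point is not a strict lower limit.

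*Apaf1* (ENSRNOG00000008022) encodes the scaffold of the apoptosome. The deposited coordinates place it at 31699885 to 31784192 of chromosome 7 (minus strand), and its 6099 exonic bases make it the longest of the 8. It had 74 counts in WT and 227, 302 and 240 in #1, #2 and #3. After TMM normalization this was 4.98 CPM in WT (95% Poisson interval 3.91 to 6.25, counting error only) and 13.5, 17.1 and 13.4 in the subclones. Each subclone lay well above WT, at 272%, 343% and 268% of its level, and the counting intervals did not overlap. The log2 fold change was 1.56 (standard error 0.39, 95% interval 0.63 to 2.48, edgeR, adjusted p = 0.0452), and 12.4% of all genes tested had a smaller p-value. The call of *Apaf1* ended without #3 (adjusted p = 0.160) and with a correction of each library for gene length, which lowered the log2 fold change to 1.15 (adjusted p = 0.0859).

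*Casp9* (ENSRNOG00000012944), the initiator caspase that APAF1 activates, lies at 160355833 to 160373778 of chromosome 5 (plus strand). It was at 26.2 CPM in WT and at 30.3, 29.4 and 34.0 in the subclones. All subclones were above WT, #1 at 116%, #2 at 112% and #3 at 130% of its level. The log2 fold change was 0.25 (95% interval -0.42 to 0.93, edgeR, adjusted p = 0.551), an interval that holds a decrease, no change and an increase. Per gene length, *Apaf1* stood at 0.0967 of the FPKM of *Casp9* in WT and at 0.227, 0.295 and 0.1996 of it in #1, #2 and #3. This ratio was chosen after the values were seen and is given with no test.

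**Figure D2:**
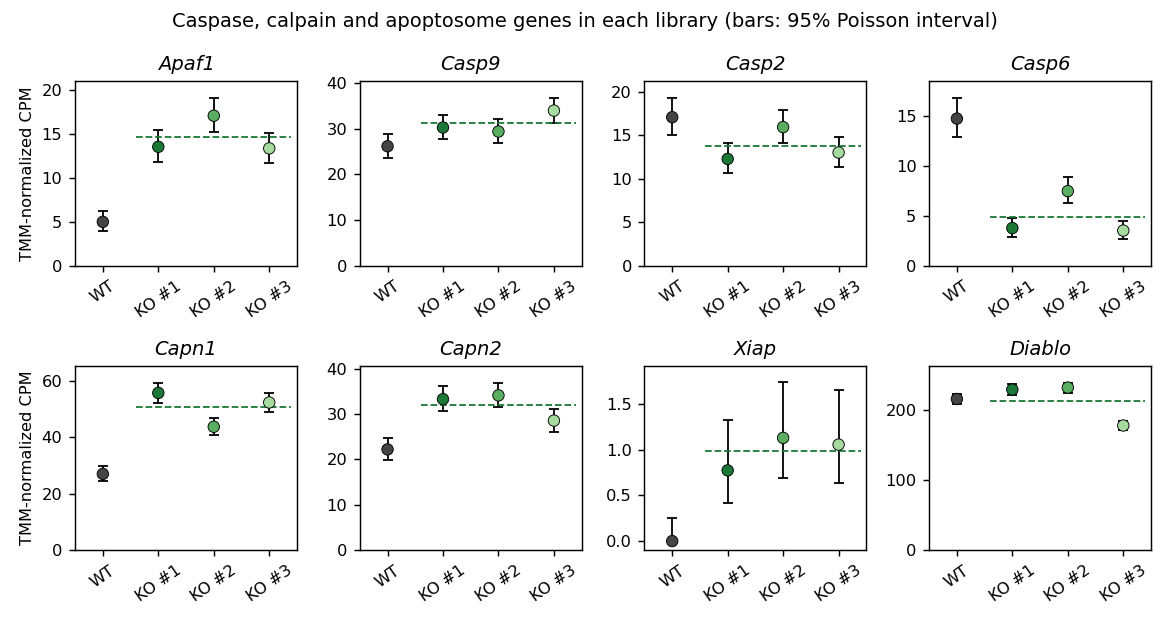
TMM-normalized CPM of each gene in the WT library and in the 3 Thop1-KO subclones (KO), each on its own axis; bars are 95% Poisson intervals of the count and the dashed line is the mean of the subclones. WT is below all 3 subclones for Apaf1, Casp9, Capn1, Capn2 and Xiap, above all 3 for Casp2 and Casp6, and inside their range for Diablo.

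*Xiap* (ENSRNOG00000006967), the inhibitor of caspases, lies at 128409472 to 128453000 of chromosome X (plus strand). It had 0 counts in WT and 13, 20 and 19 in #1, #2 and #3, which was 0.775, 1.13 and 1.06 CPM. The gene was thus near the limit of detection everywhere: with the floor at 3 counts in WT, or 0.202 CPM, the mean of the subclones was at least 4.89-fold higher. In edgeR its adjusted p was 0.0473, and the fitted fold change of a gene at 0 in one group is not a measure of size. *Xiap* lost its call without #1 (adjusted p = 0.0545), without #3 (0.158), with the gene length correction (0.0525) and under limma on log2(FPKM + 0.1) (0.0567) or log2(FPKM + 1) (0.111).

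*Diablo* (ENSRNOG00000029197), the antagonist of XIAP, lies at 38490230 to 38503330 of chromosome 12 (plus strand). It was the most abundant of the 8 genes, with 3209 counts in WT and 3847, 4106 and 3200 in the subclones. In CPM it was at 216 in WT and at 229, 232 and 178 in #1, #2 and #3. WT lay inside the range of the subclones, with #1 and #2 above it and #3 below. The log2 fold change was -0.02 (standard error 0.25, 95% interval -0.62 to 0.59, edgeR, adjusted p = 0.967). An annotated small RNA gene of 122 bases on the opposite strand overlaps *Diablo* and had 1 to 4 counts, whereas the small RNA genes within *Apaf1*, *Capn1* and *Casp2* had 0.

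*Casp6* (ENSRNOG00000009508), an executioner caspase that cuts lamins, lies at 230186198 to 230198555 of chromosome 2 (plus strand). It had 219 counts in WT and 63, 132 and 63 in #1, #2 and #3, or 14.7 CPM (95% Poisson interval 12.8 to 16.8) against 3.76, 7.47 and 3.51. All 3 subclones lay below WT, and #2 stood apart from the others, at 50.7% of WT where #1 was at 25.5% and #3 at 23.8%. The counting interval of #2, 6.25 to 8.85 CPM, lay above those of #1 (2.89 to 4.81) and #3 (2.69 to 4.49). The log2 fold change was -1.58 (standard error 0.49, 95% interval -2.75 to -0.42), and edgeR gave an adjusted p of 0.0752, over the threshold. Without #2 *Casp6* passed, with a log2 fold change of -2.02 (adjusted p = 9.95e-04), as it did with DESeq2, the study's own tool (adjusted p = 0.0388). Another row of the table, *LOC103689977* on chromosome 2 from 235341365 to 235353967, is also described as caspase-6 and had 1 count in WT, 1 in #1 and 0 in #2 and #3. How reads that match both rows were counted is not given in the sources used here, so the counts of *Casp6* are uncertain.

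*Casp2* (ENSRNOG00000016707), a caspase with a long prodomain that is activated on the PIDD1 platform, lies at 71652354 to 71670239 of chromosome 4 (plus strand). It was at 17.1 CPM in WT and at 12.3, 15.95 and 13.02 in #1, #2 and #3, so that WT was the highest library while #2 reached 93.3% of it. The log2 fold change was -0.31 (95% interval -1.11 to 0.48, edgeR, adjusted p = 0.532). The highest of the 3 subclones was #2, as it was for *Casp6*, *Apaf1*, *Xiap*, *Capn2* and *Diablo*.

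*Capn1* (ENSRNOG00000020935), the large subunit of calpain-1, lies at 221346066 to 221370322 of chromosome 1 (minus strand). It had 401 counts in WT and 933, 772 and 939 in #1, #2 and #3, or 27.0 CPM against 55.6, 43.7 and 52.3. The subclones lay at 206%, 162% and 194% of WT, with no overlap of the counting intervals. The log2 fold change was 0.90 (standard error 0.29, 95% interval 0.20 to 1.61), and edgeR left *Capn1* outside the threshold (adjusted p = 0.0847). It passed without #2, with a log2 fold change of 1.00 (adjusted p = 0.0101).

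*Capn2* (ENSRNOG00000034015), the large subunit of calpain-2, lies at 100878650 to 100928811 of chromosome 13 (minus strand). It was at 22.2 CPM in WT and at 33.3, 34.1 and 28.6 in the subclones, which was 150%, 154% and 129% of WT. All subclones were higher than WT, but the log2 fold change of 0.53 (95% interval -0.18 to 1.23) was not called (edgeR, adjusted p = 0.248). *Capn1* exceeded *Capn2* per gene length in every library, 1.42-fold in FPKM in WT and 1.96-fold, 1.501-fold and 2.15-fold in #1, #2 and #3.

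The deposited FPKM values allow levels to be compared between genes. In *Thop1*-KO the order was *Diablo* (162 ± 24.6 FPKM, SD, n = 3), *Capn1* (16.6 ± 2.05), *Casp9* (9.92 ± 0.687), *Capn2* (8.97 ± 0.915), *Casp2* (3.87 ± 0.550), *Casp6* (2.54 ± 1.15), *Apaf1* (2.37 ± 0.346) and *Xiap* (0.380 ± 0.0706). *Casp9* and *Capn2* overlapped over the subclones, as did *Casp2* with *Casp6* and *Casp6* with *Apaf1*, while the other neighbours in this order did not overlap. In the WT library *Diablo* was at 165 FPKM, *Capn1* at 8.89, *Casp9* at 8.33, *Casp6* at 7.62, *Capn2* at 6.24, *Casp2* at 4.82 and *Apaf1* at 0.806, and *Xiap* was listed at 0. *Casp6* thus stood above *Capn2* and *Casp2* in WT, and below *Casp2* in each library of *Thop1*-KO (1.96 against 3.48, 3.87 against 4.50 and 1.79 against 3.62). Its FPKM was 0.915 of that of *Casp9* in WT and 0.202, 0.413 and 0.168 of it in #1, #2 and #3.

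**Figure D3:**
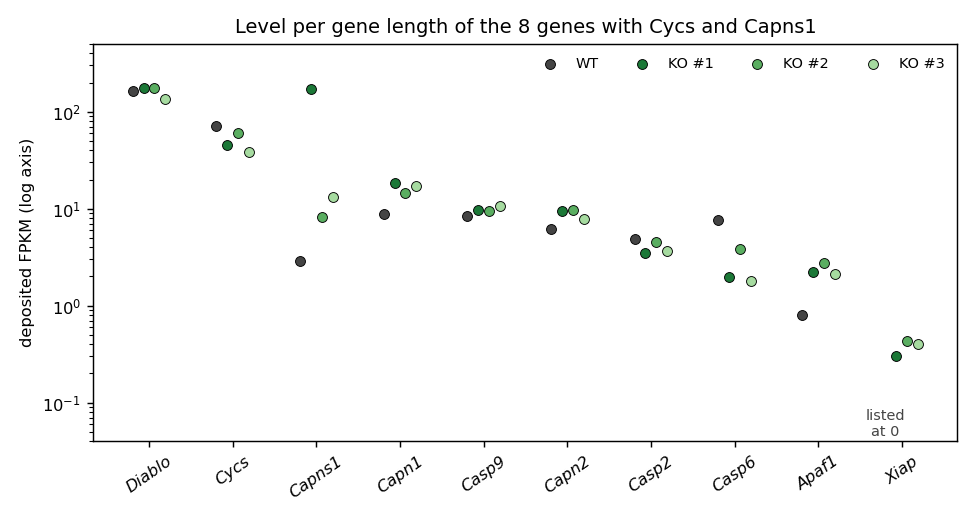
Deposited FPKM on a log axis for the 8 genes and for Cycs (cytochrome c) and Capns1 (calpain small subunit), with 1 point for each library. Diablo lies between 134 and 177 in all 4 libraries, Apaf1 between 0.806 in WT and 2.77 in #2, and Capns1 between 2.91 in WT and 171 in #1.

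The spread among subclones was widest for *Casp6*. The SD of its log2(CPM + 1) over the 3 subclones was 0.504, larger than that of 85.7% of all genes tested and of 80.8% of the 1000 genes nearest to it in mean CPM. The SD of the other 7 genes was between 0.107 (*Casp9*, above 13.4% of all genes) and 0.215 (*Diablo*, above 39.2%). *Apaf1* had an SD of 0.187 and *Xiap*, at its low level, 0.140.

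For each of the 8 genes the gene with the most similar pattern was sought among 12064 named genes, as the smallest of the largest differences over the 4 libraries in log2(CPM + 1) less its mean. With so many genes and 4 libraries a near match is easily found, and the matches are a description. *Apaf1* was followed most closely by *Ankrd52* (largest difference 0.03, 29.2 CPM in WT and 70.2 to 88.4 in *Thop1*-KO), *Xiap* by *Arl1* (0.02, 15.0 CPM in WT and 28.1 to 33.6), *Capn1* by *Kmt2b* (0.02) and *Capn2* by *E2f5* (0.02). *Casp9* was followed by *Tex13b* (0.0073), *Casp2* by *Adsl* (0.02) and *Diablo* by *Chmp4c* (0.02, with at least 14 counts in every library). Adding 1 shrinks the differences of genes near 1 CPM, such as *Xiap* and *Chmp4c*. The matches of *Xiap* and *Diablo* thus hold only on that scale. The match of *Casp6* was the loosest: *Mmp24* differed by up to 0.08, with 7.27 CPM in WT and 1.67, 3.56 and 1.28 in #1, #2 and #3.

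The partners of the 8 genes were taken from lists of their family and pathway. Of all genes, edgeR called 13.8%, DESeq2 21.5% and limma on log2(FPKM + 1) 12.7%. An unadjusted p-value under 0.05 was found for 34.0% of all genes in edgeR. Of the 5 other caspases on the list, 1 had enough counts to be tested. *Casp14*, a caspase of the epidermis, had 12 counts in WT and 17, 8 and 13 in the subclones (log2 fold change -0.15), and it was called by none of edgeR, DESeq2 and limma and had no unadjusted p-value under 0.05 in any of them. *Casp1*, *Casp4*, *Casp8* and *Casp12* never exceeded 3 counts, too few to detect a difference.

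Of the 8 adaptors of initiator caspases, all were tested and 0 were called by edgeR at an adjusted p-value under 0.05, with 0 at an unadjusted p-value under 0.05 and a median log2 fold change of 0.03. DESeq2 and limma also called 0. *Pidd1*, the scaffold for caspase-2, had 2 counts in WT and 7, 13 and 6 in the subclones, and *Cradd*, its adaptor, had 24 against 56, 43 and 40. *Ripk1*, a kinase of death receptor signalling, was at 12.2 CPM in WT and at 4.17, 12.2 and 5.68, so that #2 matched WT and the others did not.

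The list named apoptosome cofactors does not separate activators from inhibitors. All 6 of its genes were tested, and 2 were called lower and 0 higher, beside 5.17% and 8.62% of all genes. The median log2 fold change was -0.89, over genes not split by their effect on the apoptosome. DESeq2 called 3 lower and 1 higher, beside 21.5% of all genes called in either direction. Without #2, edgeR called 4 lower and 1 higher, beside 37.9% of all genes. Without #1 it called 3 lower, beside 13.6%, and without #3 1 lower, beside 3.10%. *Cse1l*, which promotes nucleotide exchange on APAF1, fell from 185 CPM in WT to 68.7, 94.2 and 78.4 in #1, #2 and #3 (log2 fold change -1.20, standard error 0.26, edgeR, adjusted p = 0.0300). *Anp32a*, which acts with it, has 2 rows in the table, with fold changes of opposite sign. The row on an unplaced scaffold had 2053 counts in WT and 505, 731 and 459 in the subclones (log2 fold change -2.09, adjusted p = 0.0117), whereas the row on chromosome 8 had 388 and 611, 1032 and 643 (0.74, adjusted p = 0.219, both from edgeR). Summed over both rows there were 2441 counts in WT and 1116, 1763 and 1102 in the subclones, so the sum was also highest in WT, and the split between the rows is uncertain. *Cycs*, whose product triggers the apoptosome, was at 87.5 CPM in WT and at 55.3, 73.0 and 47.6, and *Aven*, a binding partner of APAF1, at 25.6 and at 2.21, 8.48 and 7.40. Neither passed, with adjusted p-values of 0.221 for *Cycs* and 0.0698 for *Aven* from edgeR, and both were named after their values were seen. *Ptma*, which encodes prothymosin alpha, lay the other way, at 144 CPM in WT and at 259, 307 and 257 (log2 fold change 0.93, edgeR, adjusted p = 0.0524), and 1 gene of the list was called as higher with library size only, without a filter and with the gene length correction.

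**Figure D4:**
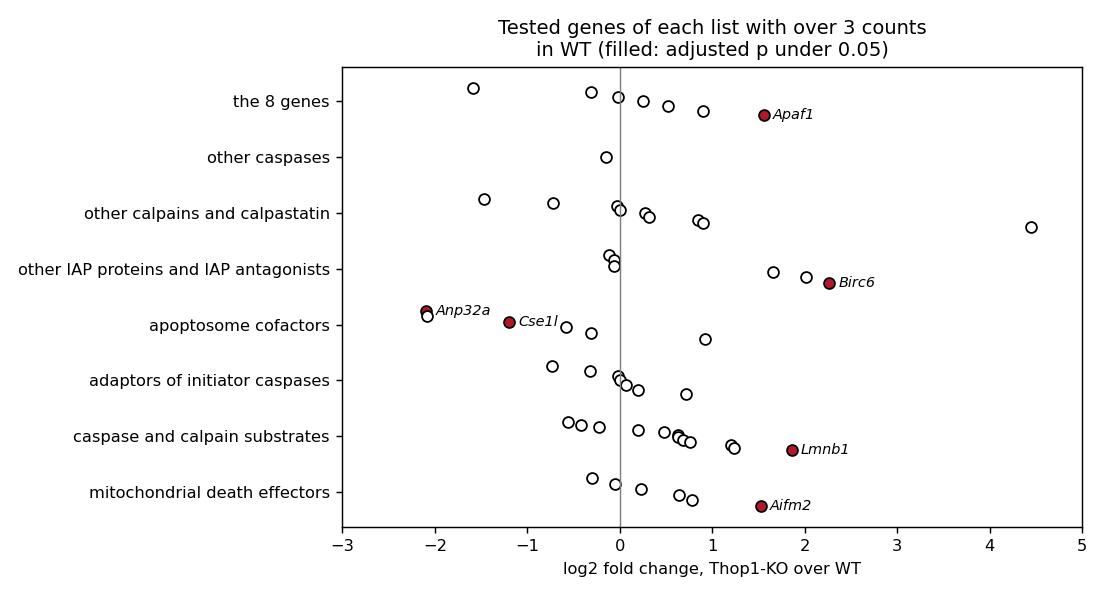
Log2 fold change (Thop1-KO over WT, edgeR) of the tested genes of each list with over 3 counts in WT; filled points have an adjusted p under 0.05. Xiap, with 0 counts in WT, is not drawn. Apaf1 is called, Cse1l and Anp32a lie to the left of 0, and Birc6, Lmnb1 and Aifm2 to the right.

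Among the other IAP proteins and their antagonists, 7 of 9 were tested and 1 was called, as higher, beside 8.62% of all genes. DESeq2 also gave this call and limma did not. *Birc6*, a giant IAP protein with a ubiquitin-conjugating domain, rose from 3.30 CPM in WT to 12.7, 17.3 and 17.5 (log2 fold change 2.26, standard error 0.43, edgeR, adjusted p = 0.0224). The median log2 fold change of the list was 1.66, or 1.22 with *Birc3*, which had 0 counts in WT, set against the floor of 3 counts. With at least 10 counts required in every library the direction of the median turned, to -0.07 over 5 genes. Without #3 no gene of the list was called, beside 3.10% of all genes. *Septin4*, whose ARTS form binds XIAP, had 864 counts in WT and 6551, 1383 and 4182 in #1, #2 and #3 (2.01, edgeR, adjusted p = 0.142). *Birc5*, which encodes survivin, was at 237 CPM in WT and at 227, 237 and 218. *Septin4* and *Birc5* were named after their values were seen.

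Of the 14 genes of the list of other calpains and calpastatin, 9 were tested and 0 were called by edgeR at an adjusted p-value under 0.05, with 2 at an unadjusted p-value under 0.05 and a median log2 fold change of 0.27. DESeq2 called 1, as lower, beside 21.5% of all genes, and limma 0. Without #2 edgeR called 2 higher and 1 lower, beside 37.9% of all genes. With the gene length correction it called 1 lower, beside 13.5%. *Cast*, the inhibitor of calpain-1 and calpain-2, had 207 counts in WT and 57, 123 and 85 in the subclones (log2 fold change -1.47, standard error 0.45, adjusted p = 0.0738), the opposite sign to *Capn1*. *Capn15* was at 34.4 CPM in WT and at 71.6, 49.7 and 71.3 (0.90, edgeR, adjusted p = 0.107). *Capns1*, the shared small subunit, had 32 counts in WT and 2103, 106 and 176 in #1, #2 and #3, so that 1 subclone held most of the difference (log2 fold change 4.44, standard error 2.07, edgeR, adjusted p = 0.180). *LOC100912380* and *LOC108348197*, both also on chromosome 1 and described as like *Capns1*, had 38 and 21 counts in WT, 188 and 76 in #1, 127 and 66 in #2, and 166 and 92 in #3, so reads shared among these copies leave the count of *Capns1* uncertain.

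Of the 12 proteins cut by caspases or calpains, all were tested and 1, *Lmnb1*, was called, as higher, beside 8.62% of all genes. DESeq2 called 2 as higher, beside 21.5% of all genes. Without #2 edgeR called 5 as higher and 1 as lower, beside 37.9% of all genes. *Lmnb1*, which encodes lamin B1 of the nuclear lamina, rose from 44.1 CPM to 153, 168 and 159 (log2 fold change 1.86, standard error 0.26, edgeR, adjusted p = 0.0108). In 8 of the 12 genes WT was the lowest library, beside 38.1% of all genes, and in 2 the highest, beside 37.6%. The median log2 fold change of the 12 was 0.63. Of the 6 mitochondrial death effectors, all were tested and 1 was called, as higher, beside 8.62% of all genes. This was *Aifm2*, an oxidoreductase that also guards against ferroptosis, rising from 22.7 CPM to 79.1, 51.0 and 66.0 (1.53, standard error 0.35, edgeR, adjusted p = 0.0365). With the gene length correction and without #3, edgeR called 0 of these 6, beside 13.5% and 3.10% of all genes, so *Aifm2* lost its call. In these settings 2 and 1 had an unadjusted p-value under 0.05, beside 32.7% and 21.7% of all genes. Without #2 or with library size only edgeR called 2, beside 37.9% and 13.6%. The median log2 fold change of the 6 was 0.44.

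The calls among the 8 genes depended on which libraries were used. Without #2, 4 genes were called (*Casp6*, *Capn1*, *Apaf1* and *Xiap*), beside 37.9% of all genes tested. Without #3 edgeR called 0 of the 8, beside 3.10% of all genes, and 3 of the 8 had an unadjusted p-value under 0.05, beside 21.7% of all genes. Without #1 it called *Apaf1*, beside 13.6% of all genes. The subclone #2 also had the highest summed fibroblast markers, as given above, and the part of these in the result was not tested. DESeq2 called *Apaf1*, *Xiap* and *Casp6*, beside 21.5% of all genes to which it gave an adjusted p-value.

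**Figure D5:**
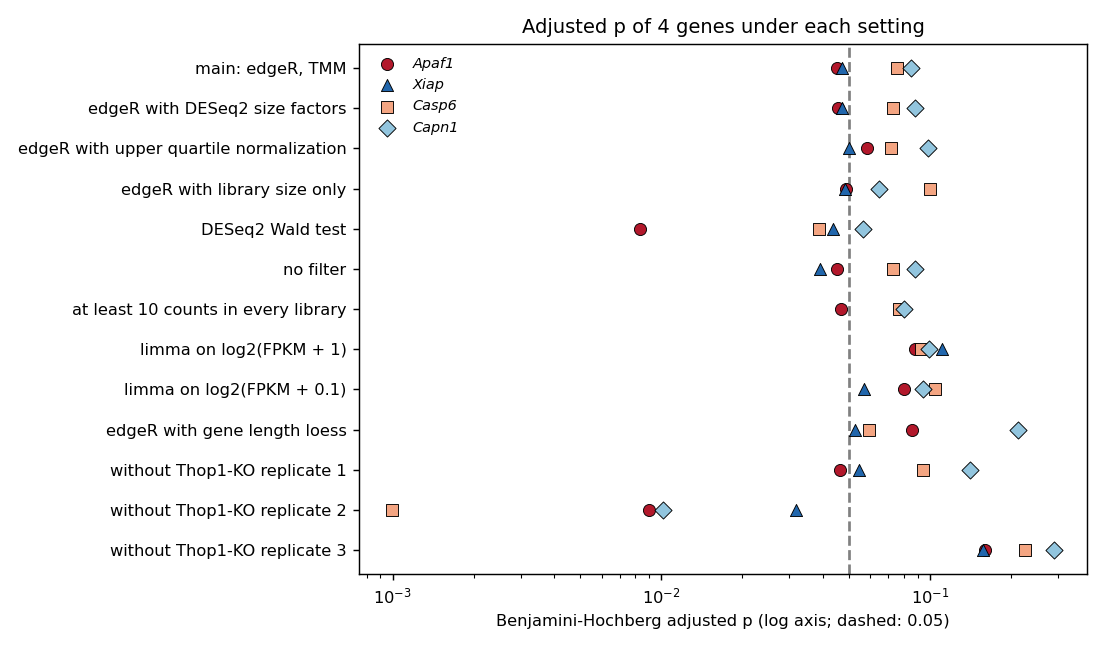
Benjamini-Hochberg adjusted p (log axis) of Apaf1, Xiap, Casp6 and Capn1 under the setting reported here (top) and each alternative; the dashed line marks 0.05. Apaf1 and Xiap lie close to the line under most settings, between 0.0083 and 0.160 for Apaf1 and between 0.0318 and 0.158 for Xiap.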

How the data were processed

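The 4 RNA-seq libraries were mapped to WT or *Thop1*-KO by the deposited genotype and number. Per the labels, poly(A) RNA was sequenced with a kit that is not described as stranded, and HISAT2 2.0.5 and featureCounts 1.5.0-p3 are named in the submitters' processing notes. The authors deposited raw counts per gene and FPKM values, and in each library 100% of the FPKM values equalled counts divided by gene length and 1 factor (within 0.1 percent). The genome build and strand setting are not given in the sources used here.

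In R 4.3.3, edgeR 4.0.16 was run on the counts: filterByExpr (minimum count 10), TMM normalization, then the quasi-likelihood test, p-values adjusted by Benjamini-Hochberg over all genes tested and called under 0.05. The script was tested on simulated data. Libraries were not duplicates (chi-square per degree of freedom 24.3 to 202 between pairs). The 95% Poisson intervals and the floor of 3 counts cover counting error only. In edgeR a p-value sets the difference from the 1 WT library against the spread of the 3 subclones, moderated across all genes. Spread between WT cultures does not enter it. Alternatives used DESeq2 1.42.0 and limma 3.58.1. The 8 genes and all lists were chosen with earlier results of these data known. Named were the 8 genes, *Thop1*, of each list every called gene or else up to 3 with the largest change, the 4 most abundant markers a list, overlapping genes, and the nearest pattern of each gene. Other genes (*Thy1*, *Dcn*, *Lum*, *Tfcp2l1*, *Nanog*, *Klf4*, *Gata4*, *Ptma*, the untested caspases, rows described as copies and those said so in the text) were named after their values were seen. Some genes of these families are not reported here. Figures used Python 3.11.15 and matplotlib 3.10.9.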

Additional observations from a re-analysis of the deposited data

How the results depend on the processing

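Of the 95 alternatives for the fold changes of the 8 genes, 77 kept direction and side of the threshold. The direction turned for genes with little change: *Diablo* was at 0.053 with library size only, 0.0054 without a filter, 0.039 with the gene length correction and -0.083 to 0.096 with a subclone left out, and *Casp9* was at -0.046 with the gene length correction, which moved the log2 fold changes of all genes by a median of -0.21. The count of the 8 genes called went from 2 to 1 with upper quartile normalization and with at least 10 counts in every library (where *Xiap* could not be tested), and to 0 with both limma settings and the gene length correction; leaving out a subclone gave 0 to 4. The count over all genes went from 2072 to between 457 and 5572 with a subclone left out (5572 without #2, 457 without #3) and to 4040 at an unadjusted p-value under 0.05 with a fold change of 2. Upper quartile normalization ended the call of *Apaf1* (adjusted p = 0.0583 in edgeR), as did limma (0.0883 on log2(FPKM + 1), 0.0799 on log2(FPKM + 0.1)). With at least 10 counts in every library the median of the other IAP list fell to -0.07, since fewer genes were tested, and the list of other caspases gave no value. Other causes were not tested. No paired analysis was possible because WT has 1 library and its label carries no number. The depth behind *Xiap*, at most 20 counts in a library, limits its precision.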
